A study of Mus musculus with 4 samples.

Results

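Colony-stimulating factor and stem cell receptors are described here in myeloid cells sorted from mouse livers. The genes are Csf1r, Csf2ra, Csf2rb, Csf2rb2, Csf3r, Flt3 and Kit, which encode receptors for myeloid growth factors, and Csf1, which encodes a ligand of Csf1r. They were chosen by symbol from the deposited gene table, and all 8 were found among its 55487 genes. Both groups carried LysM-Cre, in which the lysozyme 2 locus of monocytes, macrophages and granulocytes drives the Cre recombinase. One group carried a floxed IL-10 receptor (LysM-Cre IL10R fl/fl, n = 2 libraries) and the other an unmodified one (LysM-Cre IL10R wt/wt, n = 2 libraries), so that the control mice also expressed Cre. Cells were gated on CD45 and CD11b and against CD3 and CD11c, and poly(A) RNA was sequenced. The floxed receptor chain and the age and sex of the mice are not named in the labels. Nor do the labels tie each library to an animal of its own, so a p-value here measures only how far these samples spread. For wt/wt that spread may be technical, while the fl/fl libraries came from different mice by their sex-linked genes.

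Colony-stimulating factors are secreted proteins that keep myeloid cells alive and drive them to divide and mature. CSF1 (M-CSF) acts on monocytes and macrophages through the receptor tyrosine kinase Csf1r, GM-CSF acts through the specific chain Csf2ra and the common beta chain Csf2rb, and G-CSF acts on neutrophils and their precursors through Csf3r. Flt3 and Kit are receptor tyrosine kinases of the same class as Csf1r and are best known from haematopoietic stem and progenitor cells, with Flt3 also on dendritic cells and Kit also on mast cells.

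The libraries held 17154042 to 26441014 counts, and Pearson's r of log values over 13496 genes was 0.975 within wt/wt and 0.960 within fl/fl, where genes are not independent replicates. Il10ra, the ligand-binding chain of the IL-10 receptor, stood at 1111 and 993 CPM in wt/wt against 69.3 and 14.8 CPM in fl/fl (edgeR quasi-likelihood log2 fold change −4.64, Benjamini-Hochberg adjusted p = 0.0193). Omitting fl/fl 1 or fl/fl 2 gave −6.18 and −3.92, and omitting wt/wt 1 or wt/wt 2 ended the call, at adjusted p-values of 0.159 and 0.0905 (edgeR). CPM are counts scaled to library size, with TMM factors that align the typical gene between libraries. Xist, the X inactivation RNA, held 245 CPM in fl/fl 2 against 0 counts elsewhere. The sum of 4 Y-linked genes was 1 count in fl/fl 2 against 3455 to 6562 elsewhere. The fl/fl libraries thus came from mice of different sex, with fl/fl 2 as the only female library. Sex was not balanced between the genotypes, and fits without fl/fl 2 compare male libraries alone. The part of sex in the results was not tested. Ptprc, which encodes CD45, held 1095 to 1580 CPM and Itgam, which encodes CD11b, held 368 to 501 CPM over the libraries. Xist, Ptprc and Itgam were named after their values were seen.

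No growth factor or receptor gene passed the edgeR test between fl/fl and wt/wt after adjustment over all tested genes, where 5.85% of 13496 genes passed (2.69% higher and 3.16% lower in fl/fl). All 8 passed the filter on low counts. At an unadjusted p under 0.05, which 22.5% of all tested genes had, there were 4: Csf1 and Csf1r were lower in fl/fl, and Csf3r and Kit were higher. DESeq2, which called 10.9% of all genes, called these 4, and limma-voom, which called 4.93%, called 0. The levels of the groups did not overlap for 7 of the 8 genes, against 54.4% of all tested genes, so separation of 2 libraries from 2 is common in these data. The log2 fold changes were positive for 4 genes and negative for 4, with a median of −0.10 beside 0.02 over all tested genes, and the median absolute value was 0.64 beside 0.35. An exact two-sided permutation test of 2 libraries against 2 can give no p below 0.333.

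**Figure D1:**
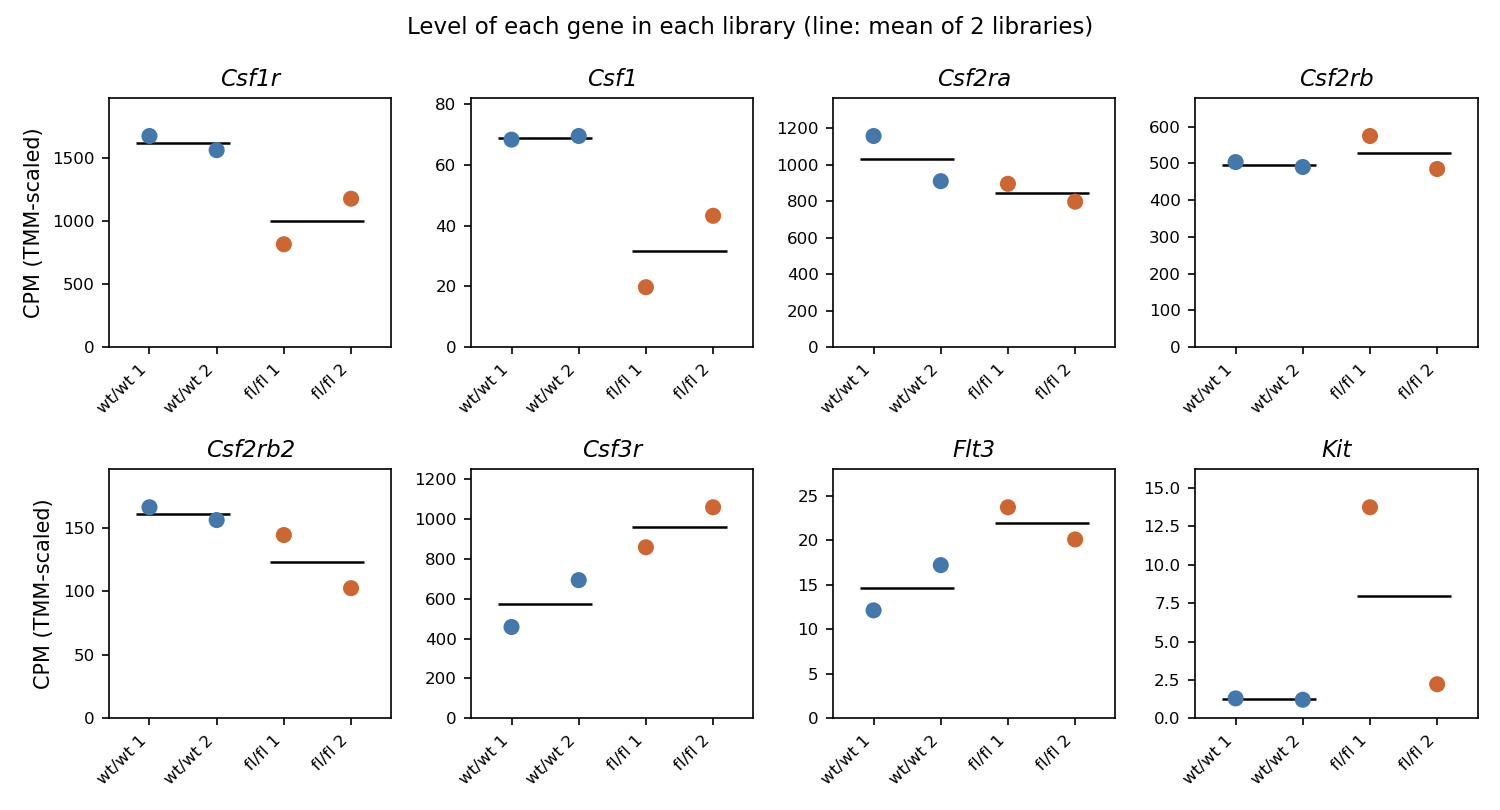
Level of each growth factor or receptor gene in CPM after TMM scaling (linear axis from 0) in each of the 4 libraries, with a line at the mean of each group. Csf1r and Csf1 lie lower in both fl/fl libraries, Csf3r lies higher in both, and Kit is high in fl/fl 1 alone at 13.7 CPM.

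The CSF1 axis was lower in fl/fl at both ends, without passing the threshold. Csf1r (ENSMUSG00000024621; GRCm38 chromosome 18, 61100598 to 61132149, plus strand) held 1677 and 1564 CPM in wt/wt libraries 1 and 2 and 817 and 1179 CPM in fl/fl libraries 1 and 2. Both fl/fl libraries were below both wt/wt libraries, and fl/fl 1 was the lowest. The means were 1621 ± 79.4 CPM and 998 ± 256 CPM (SD, n = 2 each), and edgeR gave a log2 fold change of −0.70 ± 0.22 (SE; adjusted p = 0.116). In these bulk samples, fewer cells of a type and less RNA per cell cannot be told apart. Without fl/fl 2 the fold change was −0.98 and the adjusted p 0.00942 (edgeR), and without fl/fl 1 it was −0.50 with an adjusted p of 0.154. DESeq2 gave an adjusted p of 0.0159.

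Part of the Csf1r signal shares its position with another gene. Hmgxb3, named after its values were seen, lies on the opposite strand, and 873 exonic bases, or 15.1% of the exonic length of Csf1r, overlap it. The strand setting of the counting is not given in the sources used here, so reads of this overlap cannot be assigned with certainty. Hmgxb3 stood at 21.7 and 20.6 CPM in wt/wt against 11.1 and 11.2 CPM in fl/fl (adjusted p = 0.0556, edgeR), lower in both fl/fl libraries as Csf1r was. These levels were far below those of Csf1r, which held 817 to 1677 CPM over the libraries.

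Csf1 (ENSMUSG00000014599; chromosome 3, 107741048 to 107760469, minus strand), the gene of the secreted or membrane-bound ligand, stood at 68.3 and 69.5 CPM in wt/wt against 19.7 and 43.3 CPM in fl/fl. The wt/wt libraries lay within 1.75% of each other, while fl/fl 2 was 119% above fl/fl 1, and the groups did not overlap. The means were 68.9 ± 0.844 CPM and 31.5 ± 16.6 CPM (SD, n = 2 each), with a log2 fold change of −1.13 ± 0.34 (SE; adjusted p = 0.11, edgeR). Leaving out fl/fl 1 gave −0.71 (adjusted p = 0.0872, edgeR) and leaving out fl/fl 2 gave −1.80 (adjusted p = 0.00111, edgeR). DESeq2 called Csf1 at an adjusted p of 0.00607. Il34, the other ligand of Csf1r, stood at 8 and 1 counts in wt/wt against 2 and 0 counts in fl/fl, too few to be tested.

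Counts of Csf1r per count of Csf1 were 24.5 and 22.5 in wt/wt against 41.4 and 27.3 in fl/fl. The ratio was higher in both fl/fl libraries, so the ligand gene was lower by a larger factor than the receptor gene in each of them (exact permutation test, p = 0.333, the smallest this design allows). This ratio and the others below were formed after the levels had been seen.

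None of the GM-CSF receptor genes passed the test, and their log2 fold changes lay between −0.38 and 0.09. Csf2ra (ENSMUSG00000059326; chromosome 19, 61223957 to 61228429, minus strand), the ligand-specific alpha chain, stood at 1157 and 910 CPM in wt/wt against 895 and 797 CPM in fl/fl. The wt/wt libraries differed from each other by more than wt/wt 2 differed from fl/fl 1. The means were 1034 ± 175 CPM and 846 ± 69.2 CPM (SD, n = 2 each), and edgeR gave a log2 fold change of −0.29 ± 0.19 (SE; adjusted p = 0.432).

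Csf2rb (ENSMUSG00000071713; chromosome 15, 78325752 to 78353847, plus strand) encodes the beta chain shared by the receptors for GM-CSF, IL-3 and IL-5. It stood at 503 and 490 CPM in wt/wt against 574 and 485 CPM in fl/fl, and it was the one gene of the 8 whose groups overlapped. Its edgeR log2 fold change was 0.09 ± 0.17 (SE; adjusted p = 0.811), and without fl/fl 1 its sign turned, at −0.073. Csf2rb2 (ENSMUSG00000071714; chromosome 15, 78282507 to 78305721, minus strand) encodes the beta chain that mice use for IL-3 alone, and it lies next to Csf2rb. It stood at 166 and 156 CPM in wt/wt against 144 and 103 CPM in fl/fl, with fl/fl 2 the lowest. Its edgeR log2 fold change was −0.38 ± 0.20 (SE; adjusted p = 0.317), and it lay between −0.69, on omitting fl/fl 1, and −0.15, on omitting fl/fl 2.

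Csf2rb and Csf2rb2 are near-identical copies, and their separate counts are uncertain for that reason. Of 2628 coding bases aligned without a gap, 2503 were identical and 125 differed (95.2% identity), and the longest identical run was 242 bases. Among all windows of 50 bases in the annotated transcripts, 12.3% of those of Csf2rb and 18.4% of those of Csf2rb2 also occurred in the other gene. For windows of 100 bases the shares were 4.63% and 6.82%. The sequences below show why some reads can be assigned and others cannot. They are adjoining stretches of 60 coding bases, overlapping by 1 base, in exon 4 of both genes, read from the GENCODE transcripts of GRCm38, 5′ to 3′ on the coding strand. The first stretch, at chr15:78338834-78338893 (plus strand) in Csf2rb and chr15:78294438-78294497 (minus strand) in Csf2rb2, is the same in both.
Csf2rb and Csf2rb2, shared stretch: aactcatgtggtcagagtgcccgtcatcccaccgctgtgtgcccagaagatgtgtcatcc
The next stretch, at chr15:78338893-78338952 in Csf2rb and chr15:78294379-78294438 in Csf2rb2, holds 13 differences, which the capitals mark.
Csf2rb: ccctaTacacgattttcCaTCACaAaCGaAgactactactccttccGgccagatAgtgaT
Csf2rb2: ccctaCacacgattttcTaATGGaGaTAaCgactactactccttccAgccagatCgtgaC
A read that lies within the first stretch could come from either gene, while one across the second can be told apart. With the counts of both genes summed before the fit, the log2 fold change was −0.011 (adjusted p = 0.982, edgeR). Counts of Csf2rb per count of Csf2rb2 were 3.03 and 3.14 in wt/wt against 3.98 and 4.73 in fl/fl, higher in both fl/fl libraries (exact permutation test, p = 0.333).

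The ligands of this receptor family were not detected in the sorted cells. Csf2, Il3 and Il5, which encode GM-CSF, IL-3 and IL-5, had 0 counts in each of the 4 libraries, which allows up to 3 counts, or 0.111 to 0.175 CPM by library. The limit is for counting error alone, because the reads carry no mark that separates PCR copies from molecules. Il3ra, the alpha chain for IL-3, stood at 51.5 and 56.3 CPM in wt/wt against 64.8 and 91.2 CPM in fl/fl (edgeR log2 fold change 0.53, adjusted p = 0.189). Il5ra, the alpha chain for IL-5, held at most 12 counts in any library and was not tested. Of the 9 ligands and other receptor chains looked at, 2 passed the filter on low counts, and edgeR, DESeq2 and limma-voom called 0, with 1 at an unadjusted p under 0.05. Counts of Csf2rb per count of Csf2ra were 0.435 and 0.539 in wt/wt against 0.642 and 0.608 in fl/fl (exact permutation test, p = 0.333).

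Csf3r (ENSMUSG00000028859; chromosome 4, 126024550 to 126044440, plus strand), the receptor of G-CSF, stood at 458 and 693 CPM in wt/wt against 857 and 1058 CPM in fl/fl. Both fl/fl libraries were above both wt/wt libraries, and the wt/wt libraries differed from each other by 51.2%. The means were 575 ± 166 CPM and 957 ± 142 CPM (SD, n = 2 each), with a log2 fold change of 0.73 ± 0.24 (SE; adjusted p = 0.131, edgeR). The fold change ranged from 0.42 without wt/wt 1 to 1.07 without wt/wt 2, and the adjusted p was 0.0301 with DESeq2. Csf3, the gene of G-CSF, stood at 2 and 2 counts in wt/wt against 7 and 8 counts in fl/fl, too few to be tested.

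Flt3 and Kit, the stem cell receptors, were expressed at far lower levels per kilobase of exon than the colony-stimulating factor receptors. Flt3 (ENSMUSG00000042817; chromosome 5, 147330741 to 147400489, minus strand) stood at 12.1 and 17.2 CPM in wt/wt against 23.7 and 20.1 CPM in fl/fl. Both fl/fl libraries were higher, without passing the threshold (log2 fold change 0.58 ± 0.25, SE; adjusted p = 0.239, edgeR). Flt3l, its ligand, stood at 5.39 and 7.22 CPM in wt/wt against 6.64 and 9.64 CPM in fl/fl (edgeR log2 fold change 0.37, adjusted p = 0.588), with overlapping groups.

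Kit (ENSMUSG00000005672; chromosome 5, 75574916 to 75656722, plus strand) was the gene whose difference rested most on 1 library. It stood at 29 and 33 counts in wt/wt against 236 and 39 counts in fl/fl, which were 1.30, 1.22, 13.7 and 2.23 CPM. Library fl/fl 1 was 517% above fl/fl 2, while fl/fl 2 lay above both wt/wt libraries by a smaller step. The means were 1.26 ± 0.0615 CPM and 7.98 ± 8.14 CPM (SD, n = 2 each), with a log2 fold change of 2.66 ± 0.81 (SE; adjusted p = 0.111, edgeR). Omitting fl/fl 2 gave 3.45 (adjusted p = 0.000541, edgeR) and omitting fl/fl 1 gave 0.78 (adjusted p = 0.607, edgeR). DESeq2 called Kit with all 4 libraries, at an adjusted p of 0.00367, and limma-voom did not, at 0.264. Kitl, the Kit ligand, stood at 20 and 0 counts in wt/wt against 0 and 4 counts in fl/fl and was not tested.

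**Figure D2:**
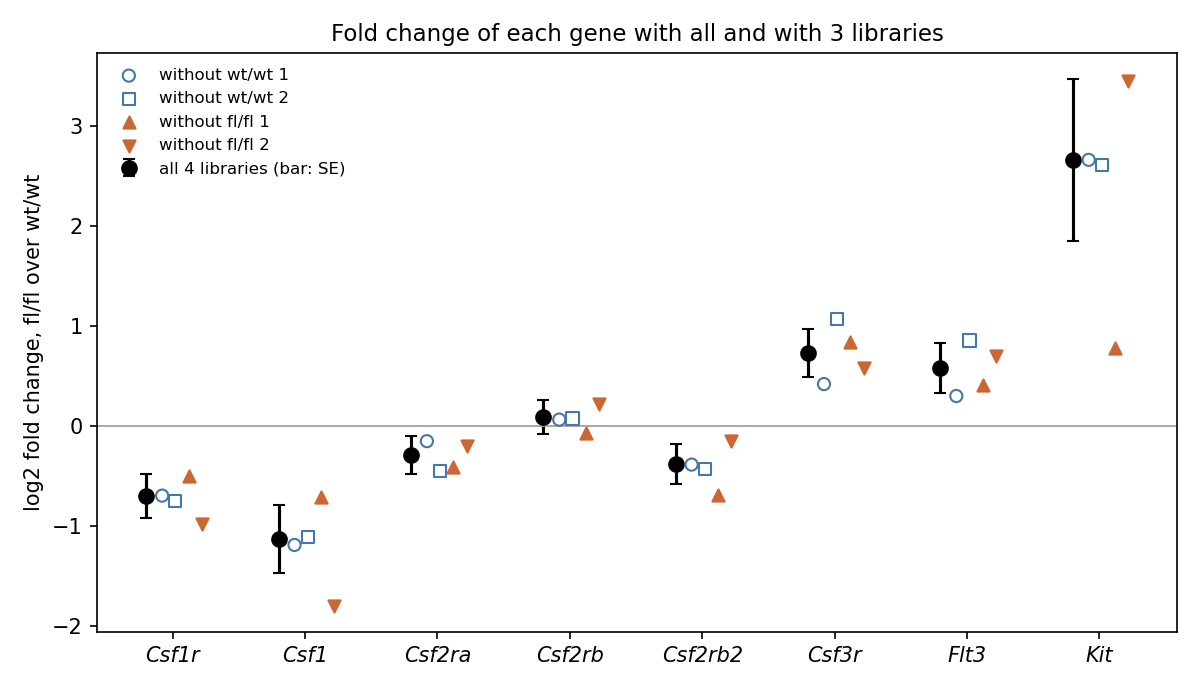
Log2 fold change of fl/fl over wt/wt for each gene, with all 4 libraries (black, bar: SE of the edgeR fit) and with each library left out (coloured). Kit moves from 2.66 to 0.78 without fl/fl 1, and Csf2rb is the one gene whose points lie on both sides of 0.

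Leaving out single libraries kept the sign of 7 of the 8 fold changes, with Csf2rb as the exception. Without fl/fl 2, edgeR called 3 genes, Kit, Csf1 and Csf1r, and 10% of all tested genes. Without fl/fl 1 it called 0 of the 8 and 6.56% of all tested genes. In those fits the spread came from the wt/wt pair alone, and the single fl/fl library was assumed to vary like it. Without either wt/wt library, edgeR called 0 of all tested genes, and 1576 and 2333 genes had an unadjusted p under 0.05 without wt/wt 1 and without wt/wt 2. With no filter on low counts, edgeR called Csf1, Csf1r, Csf3r and Kit, and 9.2% of all genes.

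Levels of different genes were compared as CPM per kilobase of exon. In both wt/wt libraries the order was Csf2ra, Csf1r, Csf3r, Csf2rb, Csf2rb2, Csf1, Flt3 and Kit, and no neighbours in this order overlapped. Csf2ra stood at 403 and 317 CPM per kilobase, Csf1r at 290 and 271, and Csf3r at 127 and 192. In fl/fl, Csf3r had passed Csf1r, with 238 and 293 CPM per kilobase of Csf3r against 141 and 204 of Csf1r. Csf3r and Csf2ra, the latter at 312 and 278, then overlapped. Csf1 and Flt3 also overlapped in fl/fl, at 3.74 and 8.19 against 3.84 and 3.25 CPM per kilobase. Kit was the lowest in every library, from 0.136 to 1.54 CPM per kilobase.

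**Figure D3:**
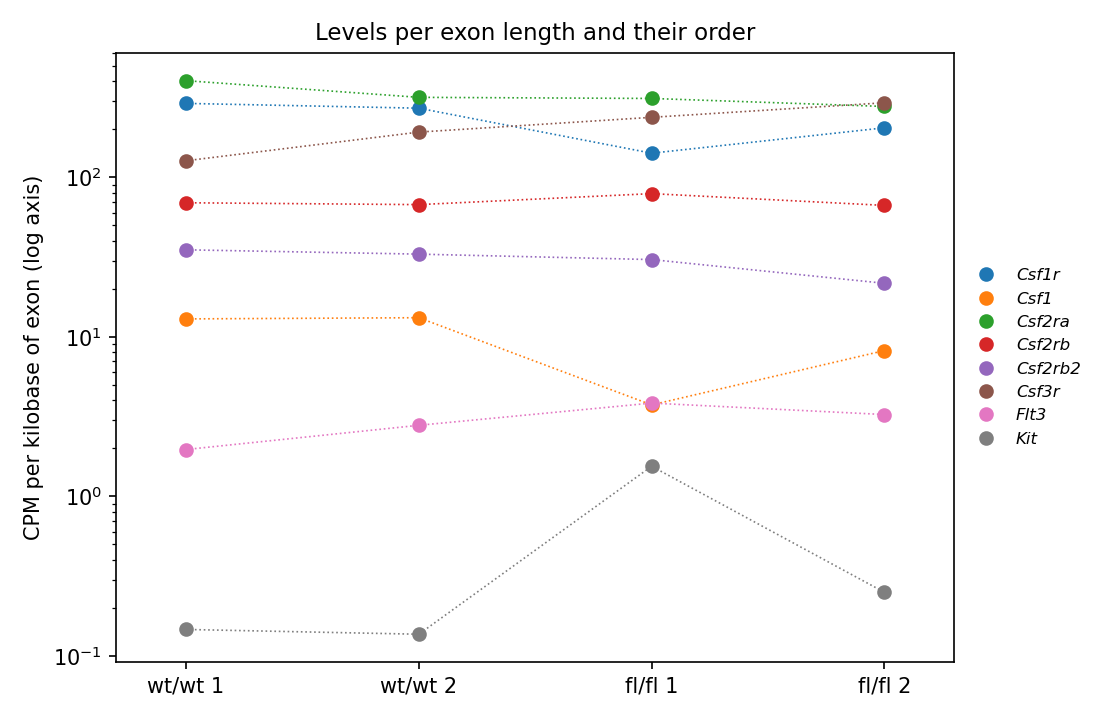
CPM per kilobase of exon (log axis) for the 8 genes in the 4 libraries, with dotted lines that only follow a gene from library to library. Csf1r lies above Csf3r in both wt/wt libraries and below it in both fl/fl libraries.

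Csf1r, the receptor of the macrophage lineage, and Csf3r, that of the neutrophil lineage, thus exchanged their order per kilobase of exon. Neither gene passed the edgeR test. Before division by exon length, fl/fl 2 still held more of Csf1r, at 20658 counts against 18531 of Csf3r. Counts of Csf3r per count of Csf1r were 0.273 and 0.443 in wt/wt against 1.05 and 0.897 in fl/fl, and the groups did not overlap. The log2 ratio was −1.52 ± 0.49 in wt/wt and −0.04 ± 0.16 in fl/fl (SD, n = 2 each), a difference of 1.48 (exact permutation test, p = 0.333). This ratio does not depend on the scaling of the libraries. In the edgeR fit the change of the ratio was 1.43 on the log2 scale, and it lay between 1.12 and 1.81 with single libraries left out.

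Promoters of these genes were searched for short core motifs of factors known to act on myeloid genes, on both strands of the 250 bases before the RefSeq start (GRCm38.p6). The table of RefSeq promoters had an entry for 6 of the 8 genes, and the promoters of Csf1r and Csf2rb, which had none, were not searched. GAGGAAG, a core of PU.1 sites, occurred in 4 of the 6 (Csf3r, Kit, Csf2rb2 and Csf2ra), and in 10.6% of 32851 promoters of the same length. The shares are per promoter, and the 32851 promoters belong to 27025 genes. The stretches around these matches are shown because the receptors for G-CSF, stem cell factor, IL-3 and GM-CSF hold the same letters there. Each has 29 bases on the strand of the gene, with the motif or its reverse complement in capitals.
Csf3r, chr4:126024562-126024590 (plus strand): ctccttcctgaGAGGAAGgggctgtctat
Kit, chr5:75574753-75574781 (plus strand): gagagtgctagGAGGAAGaggatccaggg
Csf2rb2, chr15:78305872-78305900 (minus strand): ctctgtgtctgCTTCCTCcagagaagtca
Csf2ra, chr19:61228412-61228440 (minus strand): ctgcagatGAGGAAGAGGAAGcgggagac
The Csf2ra stretch holds 2 overlapping matches, and the matches of Csf3r and, in part, of Csf2ra lie in exons of the GENCODE annotation. The C/EBP core TTNNGNAA occurred in 1 of the 6 (Csf2ra) against 36.8% of all promoters, and the STAT core TTCNNNGAA in 1 (Csf2rb2) against 7.02%. The RUNX core TGTGGT and the GATA core AGATAA occurred in 0 of the 6, against 14% and 9.99%. Of the 4 genes with the PU.1 letters, 2 were higher and 2 lower in fl/fl by the sign of their fold change, and none of them passed the edgeR test. A match of letters is a description and not a site.

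Transcription factors known to act on these receptor genes were measured alongside. Of 14 tested, 2 were higher and 2 lower in fl/fl by the edgeR test, beside 2.69% and 3.16% of all tested genes. The list median of the log2 fold change was −0.33. Cebpe, a factor of late granulocyte maturation, rose from 9.70 and 9.58 CPM to 110 and 45.4 CPM (edgeR log2 fold change 3.01, adjusted p = 0.0163). Myb, a factor of progenitor cells, rose from 1.62 and 0.921 CPM to 10.1 and 7.02 CPM (2.76, adjusted p = 0.0223, edgeR). Runx1 fell from 188 and 150 CPM to 72.7 and 71.4 CPM (−1.23, adjusted p = 0.0182, edgeR). Cebpa, which drives Csf3r in early granulocyte cells, fell from 335 and 322 CPM to 200 and 201 CPM (−0.71, adjusted p = 0.0443, edgeR), with an adjusted p of 0.0628 without fl/fl 1 and 0.0583 without fl/fl 2. Spi1, which encodes PU.1 and was named with its values known, stood at 561 and 600 CPM in wt/wt against 813 and 739 CPM in fl/fl (0.42, adjusted p = 0.190, edgeR). Omitting either wt/wt library left 0 of the 14 past the threshold, and the list median was 0.17 in the fit that left out wt/wt 2. Omitting fl/fl 2 gave 3 higher and 1 lower, with Cebpe at 3.51, and omitting fl/fl 1 gave 2 higher and 1 lower, with Cebpe at 2.20.

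Of the genes for proteins that carry the signal from these receptors, most did not pass the test. Of 32 tested, 0 were higher and 3 were lower in fl/fl by edgeR, beside 2.69% and 3.16% of all tested genes. An unadjusted p under 0.05 was found for 8, and for 22.5% of all tested genes. DESeq2 and limma-voom also called 0 higher, and the edgeR median log2 fold change was 0.01. Src, a tyrosine kinase that binds activated Csf1r, stood at 21.3 and 20.2 CPM in wt/wt against 1.28 and 0.228 CPM in fl/fl (edgeR log2 fold change −4.77, adjusted p = 0.0141; −6.51 on omitting fl/fl 1 and −4.00 on omitting fl/fl 2). Its relatives Lyn and Fgr, named after their values were seen, held 438 to 635 CPM in all libraries and were not called. Dok2, an adaptor that damps receptor kinase signals, fell from 109 and 111 CPM to 51.0 and 40.9 CPM (−1.26, adjusted p = 0.0171, edgeR). Inpp5d, which encodes the lipid phosphatase SHIP1, fell from 464 and 421 CPM to 258 and 235 CPM (−0.85, adjusted p = 0.0339, edgeR). Without either wt/wt library 0 of the 32 passed.

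Genes known to be induced by growth factor receptors through STAT5 or the ERK pathway included several that were lower in fl/fl. Of 23 tested, 1 was higher and 7 were lower by the edgeR test, beside 2.69% and 3.16% of all tested genes. The list median of the log2 fold change was −0.85 beside 0.02 over all genes. Ccnd2, which encodes cyclin D2, fell from 33.6 and 27.0 CPM to 5.07 and 5.19 CPM (edgeR log2 fold change −2.56, adjusted p = 0.00879). Ccnd1, which encodes cyclin D1, fell from 26.4 and 15.3 CPM to 2.21 and 2.11 CPM (−3.27, adjusted p = 0.0120, edgeR). Dusp6, a phosphatase that feeds back on ERK, fell from 334 and 399 CPM to 107 and 130 CPM (−1.62, adjusted p = 0.0120, edgeR).

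Myc, a growth regulator, fell from 29.8 and 29.4 CPM to 11.4 and 8.10 CPM (−1.61, adjusted p = 0.0193, edgeR). The remaining calls, named after their values were seen, were Egr1, Egr2 and Etv5, which were lower, and Ccnd3. Ccnd3, the third D-type cyclin, rose from 111 and 158 CPM to 369 and 285 CPM (1.29, adjusted p = 0.0286, edgeR), opposite to Ccnd1 and Ccnd2. Cish and Pim1, STAT5 targets named after their values were seen, did not pass: Cish stood at 12 and 9.36 CPM in wt/wt against 4.31 and 4.17 CPM in fl/fl (adjusted p = 0.0532, edgeR), and Pim1 held 1808 to 2470 CPM in all libraries. The number of lower genes was 10 without fl/fl 1, 9 without fl/fl 2 and 0 without either wt/wt library. Etv5 had a fold change of −3.35 with all libraries, which became −5.25 on omitting fl/fl 1 and −2.55 on omitting fl/fl 2.

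The last list held proteases and adaptors of receptor shedding and turnover, among them Adam10 and Adam17, which release receptor ectodomains from the cell surface. Of 8 tested genes 0 were called by edgeR, 5 had an unadjusted p under 0.05 (22.5% of all tested genes did), and DESeq2 and limma-voom called 0, with a median log2 fold change of −0.41. Adam17, named after its values were seen, stood at 207 and 170 CPM in wt/wt against 114 and 150 CPM in fl/fl (adjusted p = 0.185, edgeR). Omitting fl/fl 1 gave 1 call, of a lower gene.

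**Figure D4:**
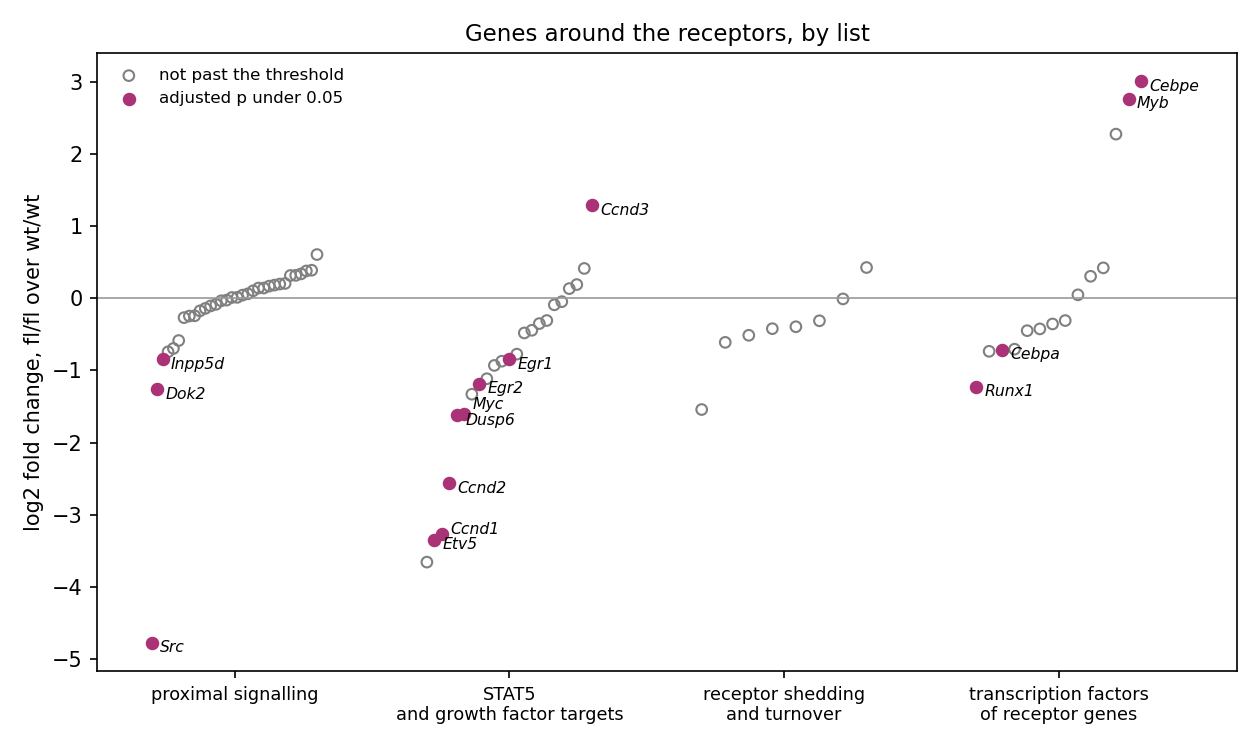
Log2 fold change of fl/fl over wt/wt for the tested genes of the lists around the receptors, ordered within each list, with genes past an adjusted p of 0.05 filled and named. Signalling genes centre on 0, with Src far below at −4.77, while growth factor targets have a median of −0.85.

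For each of the 8 genes, the most similar patterns were sought among 6747 genes of at least median expression, by the distance between centred log2 CPM over the 4 libraries. Csf1r lay closest to Tec (0.0824), Lfng (0.0928) and Rabep1 (0.0969). Csf1 lay closest to Rasgrp1 (0.25), Usp18 (0.258) and Cx3cr1 (0.287), and Cx3cr1, the fractalkine receptor of monocytes, stood at 545 and 602 CPM in wt/wt against 131 and 319 CPM in fl/fl. Csf3r lay closest to Auh (0.0526) and Add3 (0.0821), and Flt3 to Palm (0.0501), Htatip2 (0.0724) and Mrps35 (0.0747). Csf2ra lay closest to Stam (0.0496), Prr7 (0.0524) and Pi4ka (0.0576), Csf2rb to Mydgf (0.0134), Phospho2 (0.0148) and Edf1 (0.0193), and Csf2rb2 to Slc7a1 (0.0448), Trpm2 (0.0575) and Ddx49 (0.0575). Small distances were common: 4087 of the 6747 genes lay within 0.5 of Csf2rb, 2676 of Csf2ra, 1557 of Csf2rb2 and 1316 of Flt3. The number was 572 for Csf1r, 477 for Csf3r, 29 for Csf1 and 0 for Kit.

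Kit had the most distant neighbours of the 8 genes, Mmp25 (0.519), Mcm5 (0.578) and Rrm1 (0.579). Mmp25, a membrane metalloproteinase of leukocytes, stood at 14.8 and 13.5 CPM in wt/wt against 138 and 36.1 CPM in fl/fl. Mcm5, a subunit of the replicative helicase, stood at 11.6 and 9.98 CPM in wt/wt against 85.6 and 25.1 CPM in fl/fl. Each of them was highest in fl/fl 1, as Kit was. With 4 libraries such distances describe the pattern and carry no test.

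Markers of the cell types that bear these receptors moved between the genotypes, and their part in the results for the receptor genes was not tested. The counts of calls in each list stand beside 2.69% of all tested genes called higher and 3.16% called lower (edgeR). Neutrophil markers, 10 of 12 of which were higher, summed to 2910 and 3497 CPM in wt/wt against 39542 and 16989 CPM in fl/fl. Camp, the gene of a granule peptide, rose by 3.06 on the log2 scale (adjusted p = 0.00879, edgeR). Granulocyte precursor markers, 7 of 8 of which were higher, summed to 62.6 and 53.6 CPM in wt/wt against 1675 and 552 CPM in fl/fl. Mpo, the gene of myeloperoxidase, stood at 2.56 and 2.14 CPM in wt/wt against 267 and 62.7 CPM in fl/fl (edgeR log2 fold change 6.13, adjusted p = 0.0132; 4.70 on omitting fl/fl 1 and 6.84 on omitting fl/fl 2). Both sums were higher in fl/fl 1, the library with the highest Kit level, while Csf3r was higher in fl/fl 2.

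Macrophage markers, 5 of 10 tested of which were lower, summed to 3449 and 3194 CPM in wt/wt against 1406 and 1044 CPM in fl/fl. Of these, C1qb, the gene of a complement subunit, fell by 2.83 on the log2 scale (adjusted p = 0.0223, edgeR; −3.83 on omitting fl/fl 1 and −2.25 on omitting fl/fl 2). Clec4f, Timd4 and Vsig4, the defining genes of resident liver macrophages, held 0 to 0.873 CPM. Monocyte markers summed to 13705 and 12739 CPM in wt/wt against 18281 and 12707 CPM in fl/fl, with 1 of 10 called, Fn1, which fell. Omitting fl/fl 2 gave 3 higher and 2 lower monocyte markers, and omitting fl/fl 1 gave 2 lower. Chil3, a chitinase-like gene of monocytes and neutrophils, made up 8404 CPM of the sum in fl/fl 1, against 714 to 2069 CPM elsewhere. The other 9 monocyte markers summed to 12336 and 12024 CPM in wt/wt against 9877 and 10638 CPM in fl/fl. This set was formed after the values were seen. Fn1 alone held 4708 and 3806 CPM of these sums in wt/wt against 1777 and 1266 CPM in fl/fl. By sign, 7 of the 10 monocyte markers were higher in fl/fl and 3 lower, with a median log2 fold change of 0.25.

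Stem and progenitor markers summed to 115 and 64.9 CPM in wt/wt against 52.8 and 32.9 CPM in fl/fl, with 1 of 6 tested called, Sox4, which fell. Most of the sum was Ly6a, which is not limited to stem cells. By sign, 3 of the tested genes were higher in fl/fl and 3 lower, with a median log2 fold change of −0.13. Meis1 and Cd34, named after their values were seen, were higher in both fl/fl libraries without passing the threshold. Meis1 stood at 1.39 and 1.88 CPM in wt/wt against 3.20 and 3.48 CPM in fl/fl. Mast cell and basophil markers summed to 107 and 163 CPM in wt/wt against 524 and 374 CPM in fl/fl, with Hdc at 470 and 325 CPM in fl/fl as the main part and the 1 call of 8 tested. Cpa3, a defining mast cell gene, stood at 0.404 and 0.295 CPM in wt/wt against 2.04 and 1.03 CPM in fl/fl. Its edgeR log2 fold change was 2.12 (adjusted p = 0.164). Tpsb2 and Mcpt4 held at most 0.359 CPM. The basophil genes Prss34 and Mcpt8 were higher in both fl/fl libraries and highest in fl/fl 1, as Kit was, without passing the threshold. Prss34 stood at 0.0898 and 3.06 CPM in wt/wt against 27.3 and 6.85 CPM in fl/fl (edgeR log2 fold change 3.40, adjusted p = 0.142), and Mcpt8 at 0.988 and 3.13 CPM against 12.8 and 4.96 CPM (2.09, adjusted p = 0.122, edgeR). Cpa3 and Hdc, the latter at 84.7 and 129 CPM in wt/wt, were also higher in both fl/fl libraries and highest in fl/fl 1. Gata2, Ms4a2 and Fcer1a did not follow Kit, although 7 of 8 tested genes of the list had a positive fold change. Gata2 stood at 16.1 and 22.8 CPM in wt/wt against 9.55 and 30.6 CPM in fl/fl. Ms4a2 and Fcer1a were named after their values were seen. Ms4a2 stood at 1.98 and 3.61 CPM in wt/wt against 0.990 and 2.97 CPM in fl/fl. Fcer1a stood at 0.853 and 1.40 CPM in wt/wt against 0.932 and 2.40 CPM in fl/fl. Dendritic cell markers, a list that includes Flt3 itself, summed to 239 and 230 CPM in wt/wt against 77.4 and 149 CPM in fl/fl, with Siglech at 0. Itgax, which encodes the CD11c that the gate was set against, fell from 158 and 134 CPM to 24.6 and 47.1 CPM (adjusted p = 0.0197, edgeR) and was the 1 call of 8 tested, while Flt3 was higher in both fl/fl libraries. Omitting fl/fl 2 gave 3 calls in the mast cell and basophil list and 3 in the dendritic cell list, and omitting fl/fl 1 gave 2 in the stem and progenitor list.

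Markers of eosinophils, lymphocytes and liver stroma were at low levels. Eosinophil markers summed to 26.5 to 63.9 CPM, with 1 call of 4 tested, Prg2, which rose from 0 counts in both wt/wt libraries to 17 and 47 counts in fl/fl and was no longer called without fl/fl 2 (adjusted p = 0.104, edgeR). Lymphocyte markers summed to 2.74 to 5.25 CPM with 0 of 4 tested called by edgeR, 0 at an unadjusted p under 0.05 and 0 by DESeq2 or limma-voom. Liver stroma markers summed to 33.1 to 90.9 CPM with 0 of 7 called by edgeR, 1 at an unadjusted p under 0.05 and 0 by DESeq2 or limma-voom. Omitting fl/fl 1 gave 2 calls for eosinophils and 1 higher liver stroma gene, and omitting fl/fl 2 gave 1 lower lymphocyte gene and 1 lower liver stroma gene. Omitting either wt/wt library left 0 markers of any list called.

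**Figure D5:**
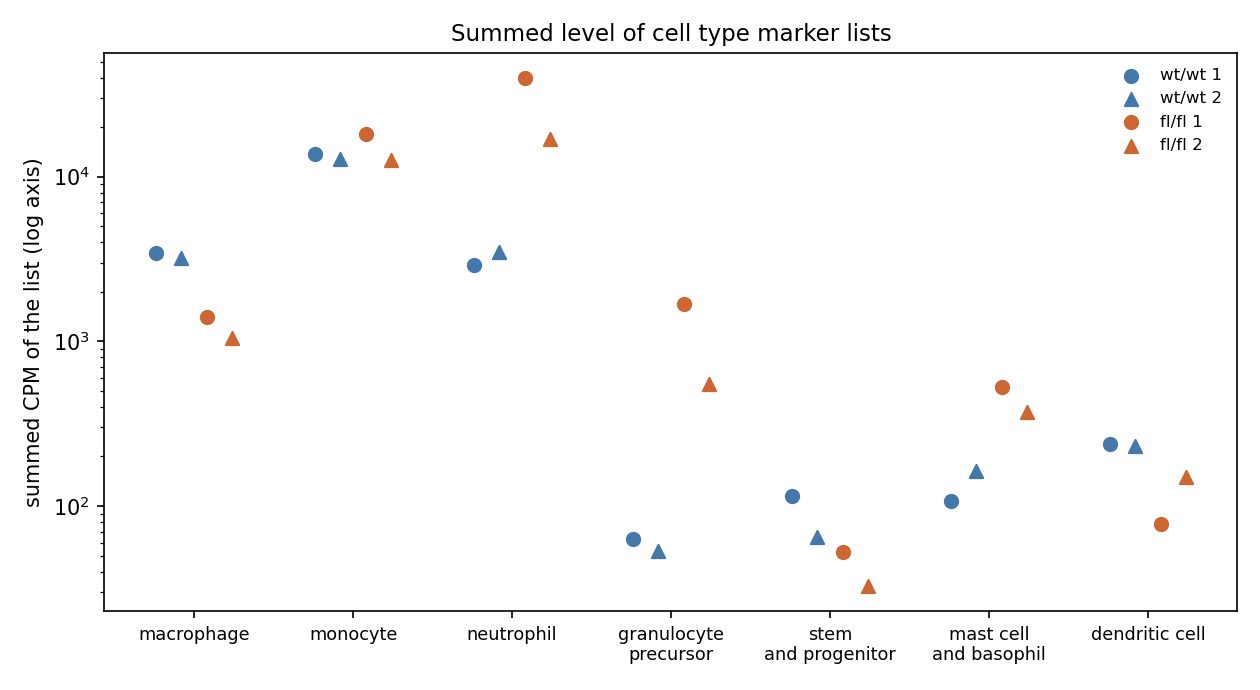
Summed CPM (log axis) of the marker lists for cell types that carry the receptors, in each of the 4 libraries. Neutrophil and granulocyte precursor sums are higher in both fl/fl libraries, at 39542 and 16989 CPM for neutrophils, and the macrophage sum is lower in both.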

How the data were processed

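The authors deposited the 4 libraries as 1 table of raw read counts, with whole numbers for 55487 Ensembl genes. Per the submitters' processing notes, reads were handled with STAR 2.5.0, Trimmomatic 0.33 and FastQC 0.11.5, with GRCm38 as the build. Not given in the sources used here are the annotation and the tool and strand setting of the counting. Symbols, found for 55227 identifiers, positions and exon lengths came from GENCODE M21 and the gene name table. The groups and replicate numbers are those of the sample titles.

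Genotypes were compared with edgeR 4.0.16 (R 4.3.3): filterByExpr with a minimum count of 10, which kept 13496 of the 22696 detected genes, TMM scaling, and the two-sided quasi-likelihood F test without covariates, with Benjamini-Hochberg adjustment over all tested genes and a threshold of 0.05. A prior count of 0.125 entered the fold changes, which set fl/fl against wt/wt, and each SE was the size of the log2 value divided by the root of F. The biological coefficient of variation was 25.5%. Alternatives were other scalings and filters, DESeq2 1.42.0, voom of limma 3.58.1, a prior count of 5, the replicate number as a block, summed Csf2rb and Csf2rb2 counts, and leaving out each library. Pattern distances used log2 CPM with a prior count of 2. The steps were tested on simulated data. Genes named were the 8 genes, Il10ra, the ligands, in each list those past the threshold or the 4 with the smallest p where more than 4 passed, the 2 most expressed markers, and the 3 nearest patterns. Results of some genes under this rule are not reported here. Genes outside this rule are marked in the text, except the defining markers of a cell type given for their low or library-specific levels, which were also chosen with their values known. The genes and lists were chosen with earlier results of these data known.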

Additional observations from a re-analysis of the deposited data

How the results depend on the processing

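Of 110 values of the 8 genes under single changes of the processing, 96 kept direction and side of the threshold, 12 gained a call and 2 turned sign, both of Csf2rb. Its log2 fold change was −0.011 with Csf2rb and Csf2rb2 summed and ranged from −0.073 (without fl/fl 1) to 0.22 (without fl/fl 2) when single libraries were left out. Genes past the threshold numbered 790, and 2088 with no filter on low counts, 1512 with DESeq2 and 1215 with the replicate block, with a range of 0 to 1477 when single libraries were left out. Of the 8 genes, 0 passed, and 4 passed with no filter, 4 with DESeq2 and 1 (Csf1, adjusted p = 0.0219) with the replicate block, with a range of 0 to 3 when single libraries were left out. The replicate numbers are shared by the groups in the labels. The deviations of the libraries numbered 1 from their group means had r = 0.0215 over 13496 genes. With 2 libraries per group, this value cannot show whether same-numbered libraries were handled together. Other scalings, the stricter filter (CPM of at least 5, which dropped Kit), limma-voom and a prior count of 5 called 0 of the genes. The cause of these differences was not tested. Depth limits Kit most, with 29 to 39 counts in 3 libraries.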
